A study of Solanum lycopersicum with 18 samples.

Results

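In 12119 merged m6A regions of tomato fruit, 364 carried a peak in all 3 libraries of *Cnr* fruit and in none of the 6 wild-type libraries. These Cnr-only regions were selected on the peak calls themselves. Peaks of the 9 lists that shared at least 1 bp were merged, and the calls in each merged region were counted. The presence of a peak in *Cnr* and its absence in wild type are therefore the rule and not a result, and no test of *Cnr* against wild type was run on these regions. The groups were *Cnr* pericarp at 42 days post-anthesis (DPA) and wild-type pericarp at 39 DPA and at 42 DPA, with 3 replicates each. Both genotypes are in the cultivar Ailsa Craig. *Cnr* (*Colorless non-ripening*) is a ripening mutant that carries a heritable epiallele at an SBP-box transcription factor gene. The study also describes the DNA of *Cnr* as hypermethylated across the genome. The labels and methods name no other allele or agent that distinguished the groups. In each replicate, fragmented mRNA was immunoprecipitated with an m6A antibody (IP) and sequenced beside the mRNA from before immunoprecipitation (input). By the study's methods each RNA sample was a pool of many fruits and the replicates were independent, but the labels do not tie them to plants, so p-values measure the spread between these libraries only. In such bulk tissue, fewer cells of a type and less RNA per cell cannot be told apart.

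N6-methyladenosine (m6A) is an internal modification of mRNA that is written by a methyltransferase complex, removed by demethylases of the ALKBH family and read by YTH-domain proteins. In plants it lies mostly near the stop codon and in the 3′ untranslated region (UTR), and it affects the stability and translation of transcripts. A peak marks a stretch where IP fragments exceed the background. A region without a peak was not called, which is not a measurement of 0.

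The lists held 9246 to 10407 peaks per library. The median fold enrichment of the summits was 5.78 to 7.67 in the *Cnr* libraries, 5.08 to 5.64 in wild type at 39 DPA and 5.02 to 5.62 in wild type at 42 DPA. At 42 DPA, 8007 regions were called in every *Cnr* and wild-type library, and over these the median log2 difference of *Cnr* minus wild type was 0.36, so the enrichment of *Cnr* was higher over the regions as a whole. The part of this general shift in the absence of wild-type peaks was not tested. The *CNR* gene itself (Solyc02g077920) held no peak in any library, and the lists give no transcript levels, so the genotype labels could not be checked by it.

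The Cnr-only regions were 364 of the 9140 regions called in all 3 *Cnr* libraries, of which 7836 were called in all 9 libraries. In the opposite direction, 196 regions were called in all 6 wild-type libraries and in no *Cnr* library, 133 in wild type at 39 DPA only and 62 in wild type at 42 DPA only. These numbers rest on different numbers of libraries and are not comparable as rates. Replicate 2 of *Cnr* limited the set. Of the 263 regions called in 2 *Cnr* libraries and no wild-type library, 204 lacked the peak in replicate 2, 43 in replicate 3 and 16 in replicate 1. Without replicate 2 the number of Cnr-only regions was 568. When only wild type at 42 DPA had to lack the peak, it was 668.

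The Cnr-only regions were moderately enriched. Fold enrichment relates the IP fragments at a peak's summit to the background, after 1 is added to each. Where a library had several summits in a region the highest was used. The median was 3.56 in *Cnr* replicate 1, 3.01 in replicate 2 and 3.70 in replicate 3, and single values ran from 1.19 to 11.7. Replicate 2 gave the lowest value of the 3 in 276 of the 364 regions. Over the 364 regions the log2 values of replicates 1 and 3 had a Pearson correlation of 0.93, those of replicates 1 and 2 one of 0.85 and those of replicates 2 and 3 one of 0.80. These correlations are across regions of the same libraries. The geometric mean of the 3 replicates, used as the mean below, had a median of 3.42 over the Cnr-only regions. Over the 7836 regions called in all 9 libraries it was 8.51 in the same *Cnr* libraries. The plot of both distributions shows that the Cnr-only regions occupy the lower part of the range of enrichment.

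**Figure D1:**
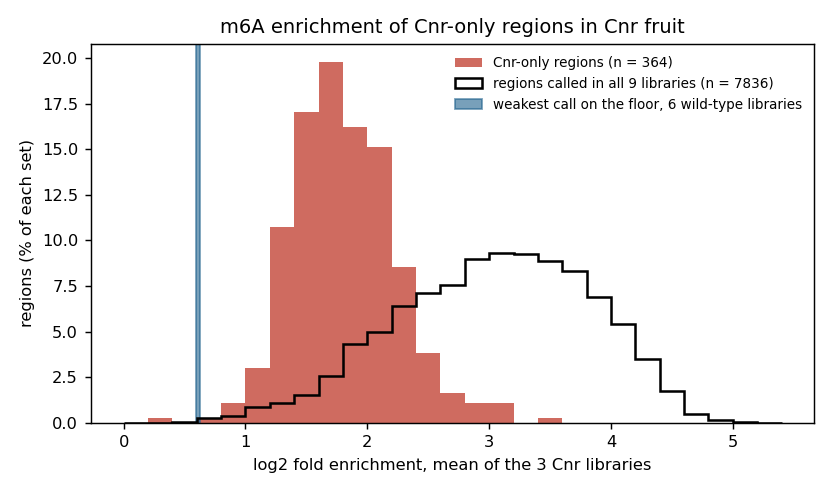
Mean log2 fold enrichment over the 3 *Cnr* libraries (x axis) of the 364 Cnr-only regions (filled) and of the 7836 regions called in all 9 libraries (outline), as a percentage of each set (y axis). The vertical band spans the weakest calls on the floor of the 6 wild-type libraries, 1.51-fold to 1.54-fold on the linear scale.

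The strength of these peaks can be set against what was callable in wild type. The background of a summit is the local input level or, where that is lower, a floor common to the library, which was 44.6 to 51.1 fragments. On the floor, the weakest peaks called in the 6 wild-type libraries held 74 to 78 IP fragments, which is 1.51-fold to 1.54-fold enrichment. The weakest calls on the floor in the *Cnr* libraries were 1.55-fold, 1.55-fold and 1.64-fold, so a member on the floor had to pass that level in *Cnr*. All 3 *Cnr* values were at least 2-fold in 344 of the 364 regions, at least 3-fold in 171 and at least 5-fold in 16. In fragments, the lowest *Cnr* value was at least 2 times the weakest wild-type call of 78 in 157 regions and at least 3 times in 41. These limits hold for places where the wild-type background was on the floor, and the wild-type background at the members is not given by the lists.

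Most Cnr-only regions lay where the input was low. The background was on the floor in all 3 *Cnr* libraries in 278 of the 364 regions (76.4%), in 1 or 2 libraries in 13 and in none in 73. Of the 8776 other regions called in all 3 *Cnr* libraries, 41.5% were on the floor in all 3. Among them, the 99 regions with only 1 wild-type call had a share of 66.7%, nearer to that of the members. Of the 196 regions called only in wild type, 30.6% were on the floor in all 6 wild-type libraries, which is a stricter demand than all 3. Counted by single library values, 41.5% of theirs in wild type were on the floor, against 77.9% of those of the members in *Cnr*. On the floor the fold enrichment follows the IP fragments alone, so that a more abundant transcript and a more methylated one cannot be told apart. The 73 regions above the floor had a median enrichment of 3.21 and the 278 on the floor one of 3.45. The members were also narrower. The median width of their peaks was 229 to 253 bp by library, against 353 to 362 bp in the regions called in all 9. Other sets of regions that were not called in every library had like values of both. The 99 regions with 3 *Cnr* calls and 1 wild-type call had a median enrichment in *Cnr* of 3.52 and a median width of 247 bp, beside 3.42 and 246 bp for the members by the same measure. The 196 regions called only in wild type, in all 6 libraries, had 3.04 and 255.5 bp in wild type. Of the members, 19 (5.22%) had more than 1 summit in a library, near the 4.51% of the other regions called in all 3 *Cnr* libraries.

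The 10 most enriched Cnr-only regions had means of 6.73 or more, and 8 of them lay over a stop codon. The first was on Solyc03g121940, described as a nuclear transcription factor Y subunit, a family that binds CCAAT boxes of promoters. Its region, on chromosome 3 from 71422713 to 71423025 in the tomato build SL3.0, was enriched 11.7-fold, 10.5-fold and 11.2-fold in *Cnr* replicates 1, 2 and 3. The IP fragments there numbered 635, 510 and 535 over backgrounds of 53.4, 47.5 and 46.9, all above the floor. The 3 values lie close together, and no other region was called on this gene. The nearest wild-type peak was 5109 bp away.

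The second, on chromosome 3 from 60596428 to 60597070, lay on the last exon of Solyc03g096800 and the last intron of Solyc03g096810, which is annotated with actin binding. The lists assign no strand to a peak, so either transcript could carry it. It was enriched 9.60-fold, 7.62-fold and 10.6-fold in the *Cnr* replicates, also above the floor. Solyc03g026300 had no description or gene ontology (GO) term, and its 3′ UTR region was enriched 8.81-fold, 7.29-fold and 9.84-fold (chromosome 3, 3756800 to 3757121, 3′ UTR). The protein kinase gene Solyc10g045270 had 9.72-fold, 6.34-fold and 9.93-fold (chromosome 10, 32522340 to 32522697, stop codon). In this gene, as in most, replicate 2 was the lowest. Solyc06g054010, annotated with phosphatidylinositol dephosphorylation, a reaction that turns over membrane signalling lipids, had 8.71-fold, 7.29-fold and 9.12-fold (chromosome 6, 36971708 to 36972087, 3′ UTR).

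Solyc07g041280, annotated as a hydrolase of carbon-nitrogen bonds, had 8.09-fold, 7.36-fold and 8.24-fold (chromosome 7, 52318683 to 52319009, stop codon). Solyc02g080620, an arogenate dehydratase, which makes phenylalanine from arogenate, had 8.05-fold, 5.6-fold and 8.77-fold (chromosome 2, 45368583 to 45368972, stop codon). A region shared by Solyc08g078140 and Solyc08g078160, of which 1 is annotated with ubiquitin-specific protease activity and the other with lipid storage bodies, had 7.57-fold, 6.4-fold and 8.02-fold (chromosome 8, 62095944 to 62096267, stop codon). The file does not assign the peak to either gene. Solyc01g110060, a purple acid phosphatase, an enzyme class that releases phosphate, had 7.85-fold, 6.12-fold and 7.32-fold (chromosome 1, 96771989 to 96772311, stop codon). Solyc11g007570, with no description, had 7.25-fold, 6.21-fold and 6.77-fold (chromosome 11, 1810508 to 1810809, stop codon). In all 10 regions every *Cnr* replicate was enriched 5.6-fold or more, well above the weakest wild-type calls on the floor, and 8 of these 10 had a background on the floor in all 3 libraries.

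**Figure D2:**
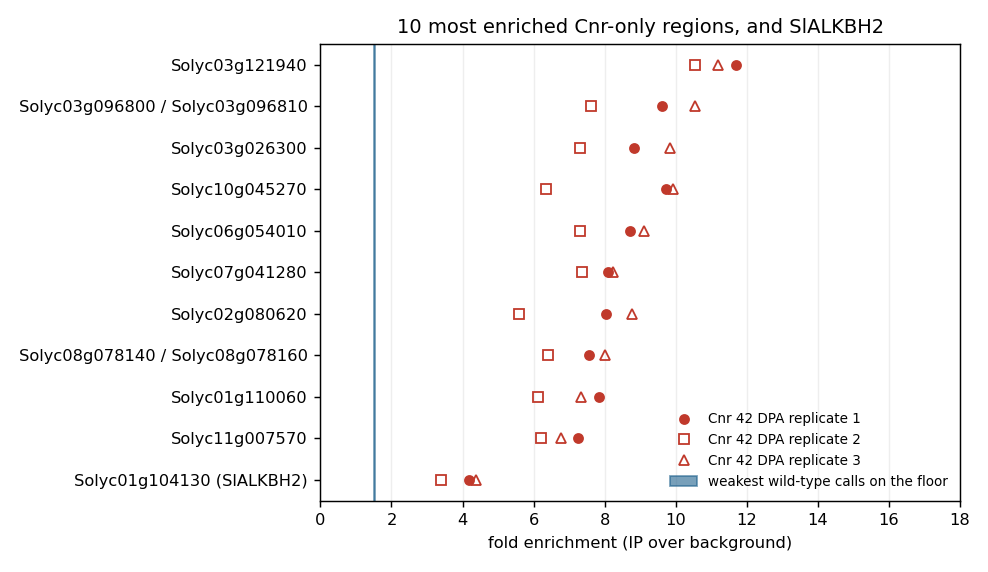
Fold enrichment (x axis) in *Cnr* replicates 1, 2 and 3 (symbols) of the 10 Cnr-only regions with the highest mean and of the region on *SlALKBH2*, named by gene (y axis). The vertical band marks the weakest calls on the floor in wild type, 1.51-fold to 1.54-fold, and no wild-type library had a peak in any of these regions. The band applies only where the wild-type background was on the floor, and that background is not known for these regions.

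*SlALKBH2* (Solyc01g104130), a gene of the ALKBH family of 2-oxoglutarate- and Fe(II)-dependent oxygenases, which includes RNA demethylases, was among the members. Its region lay on chromosome 1 from 92495538 to 92495772, began in the last exon and ended beyond the annotated gene. It was enriched 4.18-fold, 3.40-fold and 4.39-fold in the *Cnr* replicates, with 273, 206 and 251 IP fragments over backgrounds of 64.6, 59.9 and 56.5. All 3 backgrounds were above the floor, and the wild-type background here is not known, so the weakest wild-type calls on the floor may not apply. The study reports a lower transcript level of this gene in *Cnr* than in wild type. The part of transcript level in the missing wild-type peak was not tested. By mean enrichment it was number 120 of the 364, so it was an ordinary member in strength. No other region was called on this gene in any library, and the nearest wild-type peak was 15432 bp away. It was the only member among 19 genes listed by hand for their part in ripening, of which 10 held a peak in some library. Of all 11176 genes with a peak 3.10% were member genes, so 1 of 10 is too few to compare. Of the other listed genes, 9 held a peak in some library, 5 of them a region called in all 9 libraries, and the other 9 held none. *RIN* (Solyc05g012020), a MADS-box regulator of ripening, had its main region called in 3 *Cnr*, 2 wild-type 39 DPA and 3 wild-type 42 DPA libraries. *NOR* (Solyc10g006880), a NAC regulator of ripening, had its region called in 1 *Cnr* library and all 6 wild-type libraries.

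The Cnr-only regions lay on 346 genes. Of the regions, 262 overlapped 1 gene, 43 overlapped 2, 2 overlapped 3 and 57 overlapped none. GO terms in the lists covered 233 of the genes, and the study's annotation described 112. Keyword lists were matched to the GO terms and are given as counts, beside the 6196 genes with a GO term on other regions called in all 3 *Cnr* libraries. Kinases and phosphatases, which add and remove phosphate groups, matched 27 of the 233 genes (11.6%) and 8.59% of the other genes. Transporters matched 12 genes (5.15%) and 2.99%. Genes of transcription factors matched 8 (3.43%) and 1.48%. Genes of RNA and DNA modification matched 4 (1.72%) and 1.61%, cell wall genes 3 (1.29%) and 0.242%, genes of the ubiquitin and proteasome pathway 2 (0.858%) and 1.73%, and hormone genes 1 (0.429%) and 0.0968%. The GO terms of heat shock and plastid genes matched none of the 233, beside 0.194% and 0.387% of the other genes, shares at which a count of 0 in 233 genes carries no information. No test of these shares was made, and most counts are small.

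With the study's descriptions added, 33 regions lay on 32 kinase and phosphatase genes, with means of 2.08 to 8.49. After the 2 already named, the highest was a region on Solyc02g082550 and Solyc02g082553, of which Solyc02g082550 is annotated as a protein kinase, with 7.21-fold, 4.66-fold and 7.39-fold (chromosome 2, 46782017 to 46782300, stop codon). Of the 33, 21 lay over a stop codon and 11 in a 3′ UTR. Transcription factor genes had 12 regions on 11 genes, with means of 1.95 to 11.1. After the nuclear transcription factor Y subunit came Solyc05g050330 with 5.66-fold, 4.59-fold and 5.96-fold (chromosome 5, 61302914 to 61303207, stop codon) and Solyc04g054320 with 4.44-fold, 3.81-fold and 4.4-fold (chromosome 4, 52235372 to 52235619, 3′ UTR). These 3 genes bind DNA by their GO terms, and the spread between their replicates was small beside the range over the list.

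Transporter genes had 15 regions on 14 genes. The highest were on Solyc05g050360, an ion channel gene, with 6.44-fold, 4.70-fold and 5.92-fold (chromosome 5, 61325987 to 61326260, stop codon), on Solyc02g063020, a major facilitator superfamily transporter, with 5.44-fold, 4.09-fold and 4.93-fold (chromosome 2, 35590248 to 35590570, stop codon), and on Solyc07g006970 with 4.88-fold, 3.19-fold and 5.10-fold (chromosome 7, 1783368 to 1783600, stop codon). Ubiquitin genes had 10 regions on 9 genes. Besides the shared region above, these included Solyc05g050020, a RING/U-box protein of the kind that attaches ubiquitin to proteins, with 4.90-fold, 4.36-fold and 5.26-fold (chromosome 5, 60773768 to 60774083, 3′ UTR). Solyc08g008120, annotated with the regulation of proteasomal protein breakdown, had 4.78-fold, 3.24-fold and 4.80-fold (chromosome 8, 2583419 to 2583700, 3′ UTR).

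Genes of RNA and DNA modification had 11 regions on 10 genes. The highest was on Solyc02g077520, annotated as an O-methyltransferase, with 5.96-fold, 4.18-fold and 5.72-fold (chromosome 2, 42987550 to 42987807, stop codon). It matched the list by the word methyltransferase and is not shown to act on RNA or DNA. Next were pentatricopeptide repeat genes, which in plants mostly act on organellar RNA. Solyc01g108410 had 4.46-fold, 3.53-fold and 4.60-fold (chromosome 1, 95652379 to 95652648, 3′ UTR) and Solyc01g007855 had 4.41-fold, 4.03-fold and 3.58-fold (chromosome 1, 1952285 to 1952541, intron). Cell wall genes were represented by 3 regions. The region on Solyc12g014420 and Solyc12g014430, of which 1 is a cellulose synthase gene, had 4.97-fold, 4.88-fold and 4.92-fold (chromosome 12, 5399700 to 5400072, stop codon). Solyc03g116500, a polygalacturonase, which cuts pectin, had 4.12-fold, 4.07-fold and 3.77-fold (chromosome 3, 67388511 to 67388822, stop codon). A region on Solyc12g017230 and Solyc12g017240, 1 of them with a cell wall term, had 3.49-fold, 3.46-fold and 3.88-fold (chromosome 12, 6427497 to 6427760, 3′ UTR).

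Smaller lists had 1 or 2 regions each. The DnaJ co-chaperone genes Solyc04g080600 and Solyc05g050820 had 6.58-fold, 4.70-fold and 6.73-fold (chromosome 4, 64805910 to 64806249, stop codon) in the first and 3.63-fold, 3.81-fold and 4.32-fold (chromosome 5, 61848927 to 61849175, stop codon) in the second. The hormone list held only Solyc05g050280, annotated with jasmonic acid metabolism and the response to wounding, with 3.31-fold, 2.71-fold and 3.16-fold (chromosome 5, 61201155 to 61201381, stop codon). The plastid list held Solyc00g231780, a chloroplast NAD(P)H-quinone oxidoreductase subunit on unplaced sequence, written as chromosome 0, with 4.70-fold, 3.88-fold and 5.17-fold (chromosome 0, 18703108 to 18703438, intron). It also held Solyc07g064160, a chloroplast thiamine thiazole synthase, with 3.74-fold, 2.97-fold and 3.51-fold (chromosome 7, 66553128 to 66553409, 3′ UTR).

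The position on the gene was read from the annotation of the most enriched *Cnr* peak of each region. A peak on more than 1 gene got 1 label, with the stop codon taken first and the 3′ UTR next. Such a peak therefore counts as over the stop codon if any of its genes gives that label. A peak counted as over the stop codon where it began in an exon or intron and ended in the 3′ UTR or beyond the gene. Of the 364 regions, 180 (49.5%) did so. The 95% Wilson interval, 44.3% to 54.6%, treats the regions as independent draws, which they are not. It is used only to judge alternative settings and not to compare sets. In the other 8776 regions called in all 3 *Cnr* libraries the share over the stop codon was 72.9%, and in the 196 regions called only in wild type, in all 6 libraries, 47.4%. A wider peak meets this definition more easily. The median width was 246 bp in the Cnr-only regions, 349 bp in the 8776 and 255.5 bp in the 196. The part of width in these shares was not tested. A further 79 Cnr-only regions (21.7%) began in the 3′ UTR, against 17.2% of the other *Cnr* regions. Regions outside every annotated gene made up 57 (15.7%), against 4.30%, and regions centred on an intron 33 (9.07%), against 2.63%. Coding sequence held 8 (2.20%) Cnr-only regions, 2.20% of the other *Cnr* regions and 44 (22.4%) of the regions called only in wild type. The 5′ UTR held 2 and the stretch at the start of the gene 5. The calls chose the members, and no test of these shares was made. Just outside the rule, among the 99 regions with 3 *Cnr* calls and 1 wild-type call, 48.5% lay over the stop codon and 16.2% outside genes.

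**Figure D3:**
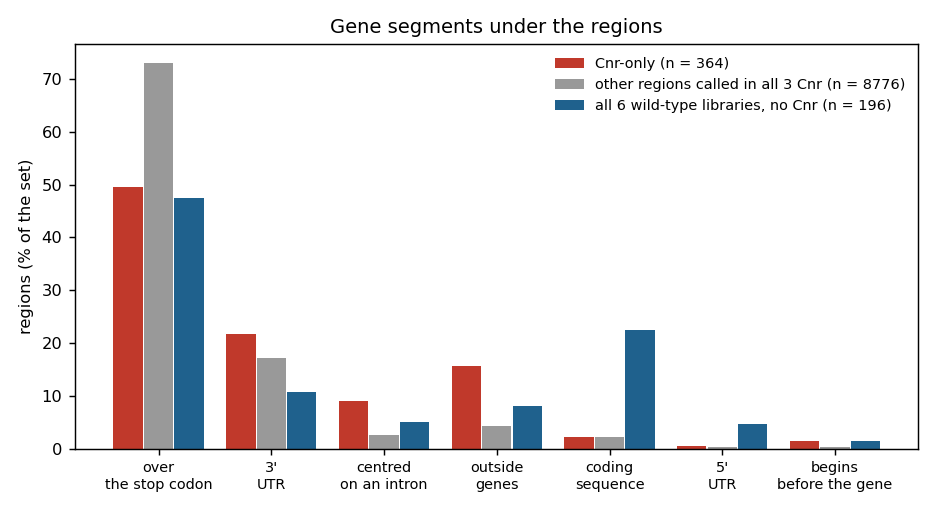
Share of regions by gene segment (y axis, percentage of the set) in the 364 Cnr-only regions, the 8776 other regions called in all 3 *Cnr* libraries and the 196 regions called in all 6 wild-type libraries and no *Cnr* library. The bars over the stop codon stand at 49.5%, 72.9% and 47.4%.

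Enrichment differed little between the segments. By median of the means, regions over the stop codon stood at 3.63, those of the 3′ UTR at 3.39, those on introns at 3.37, and those in coding sequence and outside genes both at 3.15. The background was on the floor in all 3 libraries in 144 of the 180 regions over the stop codon and 21 of the 33 on introns. The strongest intronic region was on Solyc02g088200, with no description, at 6.91-fold, 5.08-fold and 7.5-fold (chromosome 2, 51004250 to 51004624, intron), and the strongest coding region on Solyc08g061880, peroxisome biogenesis factor 10, at 6.52-fold, 4.73-fold and 5.87-fold (chromosome 8, 49708104 to 49708382, coding sequence). The first of these was chosen after its values were seen.

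Of the 57 regions outside annotated genes, 19 stood in 2 dense stretches. The stretches were chosen after their values were seen, as runs of members at most 10 kb apart, and their counts are a description. On chromosome 7 a stretch of 32.1 kb, from 48307045 to 48339193, held 12 Cnr-only regions and no annotated gene under them. Their means ran from 2.09 to 3.70, with 84 to 247 IP fragments and backgrounds from 44.6, on the floor, to 71.0. They were 241 to 2397 bp wide with a median of 620.5 bp, so wider than the members as a whole. The widest was enriched 4.64-fold, 2.46-fold and 3.22-fold in the *Cnr* replicates.

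Between these regions lay 3 others called in all *Cnr* libraries and also in all 3 libraries of wild type at 39 DPA. The widest, from 48321104 to 48324782, was enriched 10.99-fold, 8.08-fold and 8.37-fold in *Cnr*. In wild type at 39 DPA it had 3.25-fold, 3.16-fold and 4.04-fold, and in wild type at 42 DPA it was not called in replicate 1 and had 2.12-fold and 2.31-fold in replicates 2 and 3. The *Cnr* values were above all wild-type values, and the stage of 39 DPA above that of 42 DPA. In the map of the stretch by distance, the 12 Cnr-only regions have no wild-type bar because the rule required it, and only the other regions can show an order. The input of these 3 regions also differed between *Cnr* and 39 DPA. At all 3 of these regions the background was above the floor in the *Cnr* libraries and on the floor at 39 DPA. At the widest it was on the floor at 42 DPA as well, with 47.6 and 50.9 fragments in replicates 2 and 3. The other regions of the 3 had no peak at 42 DPA, so their background there is not given. At the region from 48307619 to 48307972 the background was 107.7, 92.0 and 101.9 fragments in *Cnr*, against 50.7, 51.1 and 49.7, on the floor, in wild type at 39 DPA. At the region from 48318215 to 48319335 it was 81.4, 77.4 and 64.5 in *Cnr* and on the floor at 39 DPA. Beyond the stretch, a region from 48350401 to 48350674 called in all 9 libraries had backgrounds of 459, 428 and 423 in *Cnr*, of 350, 346 and 345 in wild type at 39 DPA and of 94.1, 90.2 and 97.5 in wild type at 42 DPA. Its enrichment was 1.83-fold, 1.94-fold and 1.92-fold in *Cnr*, 2.42-fold, 1.49-fold and 2.17-fold at 39 DPA and 2.64-fold, 1.76-fold and 2.30-fold at 42 DPA, so that the groups overlapped in enrichment. The part of transcript abundance in the Cnr-only calls of the stretch was not tested.

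**Figure D4:**
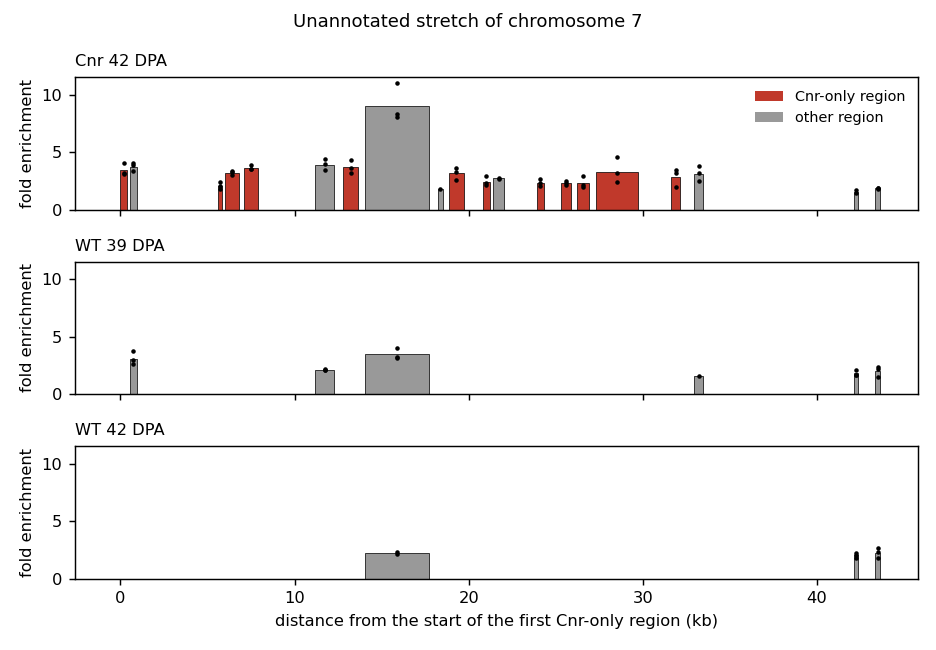
Fold enrichment (y axis) of the regions in the unannotated stretch of chromosome 7 against the distance from the start of its first Cnr-only region (x axis, kb), in *Cnr*, wild type at 39 DPA and wild type at 42 DPA. Bars span the merged region and stand at the geometric mean of the libraries with a peak, points are single libraries, and filled colour marks the 12 Cnr-only regions, which have no bar in wild type.

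On chromosome 1 a second stretch, of 12.8 kb from 68513653 to 68526437, held 7 Cnr-only regions, all outside genes. Their means ran from 2.39 to 3.24. No region in this stretch had a peak in any wild-type library, and 3 further regions had a peak in *Cnr* replicates 1 and 2 only. Unlike most members, 6 of the 7 stood on an input above the floor throughout. The most enriched, from 68519806 to 68520243, had 3.29-fold, 4.18-fold and 2.48-fold with 451, 525 and 307 IP fragments over backgrounds of 136.4, 124.9 and 123.2. Here replicate 3 was the lowest, which was not the usual order. The other 38 members outside genes were scattered, and the strongest of them had a mean of 6.18.

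With the 2 stretches counted, the members were spread over all chromosomes, at 2.95% to 5.14% of the regions called in all 3 *Cnr* libraries on the numbered chromosomes. In windows of 2 Mb with at least 20 such regions, of which there were 121, the median share was 3.64%. It passed 15% in 2 of these windows, both chosen after their values were seen. The first held the stretch on chromosome 7, with 13 members of 21 regions. The second, on chromosome 5 from 60 to 62 Mb, held 6 of 30 regions, each on a different gene. These genes were Solyc05g050020, Solyc05g050280, Solyc05g050330, Solyc05g050360, Solyc05g050820 and Solyc05g050380. The last is an ion channel gene like its neighbour Solyc05g050360 and was enriched 3.75-fold, 3.16-fold and 3.46-fold (chromosome 5, 61342902 to 61343112, stop codon). Of the 30 regions in this window, 21 were called in all 9 libraries. Windows with fewer than 20 regions were left out of these shares, and some of them also passed 15%. The window of the stretch on chromosome 1, from 68 to 70 Mb, held 7 members of 18 regions (38.9%). On chromosome 6 a window from 16 to 18 Mb held 3 of 7.

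Of the 346 genes, 284 had no peak in any wild-type library at any position, and 62 had another region with a wild-type call. The rule sets much of the first number, because 232 of the 307 members on genes lay on genes with no other region at all. Of the 75 members whose gene held another region, 57 had a wild-type call there. A region called in all 9 libraries was present on 43 of the genes, together with 42 Cnr-only regions. There were 44 pairs of a Cnr-only region and a constant region on the same gene, 154 to 14335 bp apart with a median gap of 1282 bp. In 38 of the 44 the Cnr-only region was less enriched in *Cnr* than the constant one. The median was 3.36 for the Cnr-only regions of the pairs, and for the constant regions 8.26 in *Cnr*, 6.27 in wild type at 39 DPA and 6.03 in wild type at 42 DPA. In 31 of the 44 pairs, however, 1 or both regions also overlapped a neighbouring gene, and the lists do not say which transcript carried the peak. In the 13 pairs with a single gene under both regions, the Cnr-only region was the less enriched in 10. The selection favours this order in both counts, so nothing is read from them. Over all members the median in *Cnr* was 3.42, and over all regions called in all 9 libraries it was 8.51. At 21 of the 44 constant regions every library had a background above the floor. In 1 of the 21 it was over 1.5 times higher in *Cnr* than in wild type at 42 DPA, and in 4 it was over 1.5 times lower. Over the 3701 regions called in all 9 libraries with every background above the floor, these shares were 7.13% and 19.3%, so the 21 stood near them. The median log2 ratio of the background, *Cnr* over wild type at 42 DPA, was -0.04 for the 21 and -0.13 for the 3701. At the other constant regions the background was on the floor in 1 or more libraries.

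By the enrichment of its Cnr-only region, which Solyc03g096800 shares, Solyc03g096810 came first among these genes. Its constant 3′ UTR region was enriched 15.3-fold, 12.5-fold and 16.0-fold in *Cnr*, 11.5-fold, 13.7-fold and 14.2-fold at 39 DPA and 10.1-fold, 10.5-fold and 9.24-fold in wild type at 42 DPA. *Cnr* and 42 DPA did not overlap here, and *Cnr* and 39 DPA did. Solyc09g015650, a plastid inner envelope membrane protein gene, carried an intronic Cnr-only region of 5.21-fold, 4.86-fold and 5.03-fold (chromosome 9, 10585409 to 10585657, intron). Its 3′ UTR region had 18.6-fold, 13.4-fold and 22.3-fold in *Cnr*, 8.45-fold, 9.32-fold and 10.9-fold at 39 DPA and 11.7-fold, 10.7-fold and 9.39-fold in wild type at 42 DPA, all below *Cnr*. The background of this region was 71.0, 70.8 and 60.1 fragments in *Cnr*, 147.6, 163.3 and 139.6 at 39 DPA and 104.5, 110.9 and 114.8 in wild type at 42 DPA, so the input was lower in *Cnr*. Its part in the higher enrichment was not tested.

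In Solyc10g074890, a protein kinase-like gene, the Cnr-only region was the more enriched, but its constant region is shared with Solyc10g074880. The Cnr-only region over its stop codon had 4.88-fold, 3.77-fold and 5.54-fold (chromosome 10, 58651516 to 58651839, stop codon). The constant region, 309 bp away, had 2.82-fold, 2.59-fold and 2.99-fold in *Cnr*, 2.07-fold, 2.02-fold and 2.10-fold at 39 DPA and 2.90-fold, 2.64-fold and 2.36-fold in wild type at 42 DPA. Solyc08g061880, the peroxisome biogenesis gene, shared neither region with another gene and had a mean of 5.66 in the Cnr-only region and of 4.45 in the constant region in *Cnr*. In Solyc12g005230, described as breast carcinoma-amplified sequence 3, the means were 5.40 and 11.9. They were 5.06 and 9.90 in Solyc04g080030, and 4.52 and 4.15 in Solyc02g092860, a cytochrome P450 gene. The constant region is shared with a neighbouring gene in all 3, and in Solyc02g092860 the Cnr-only region as well. The means were 4.45 and 7.91 in Solyc08g066620, cystathionine beta-lyase, an enzyme of methionine synthesis. These 8 genes, shown by replicate, include 3 with the Cnr-only region above the constant one.

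**Figure D5:**
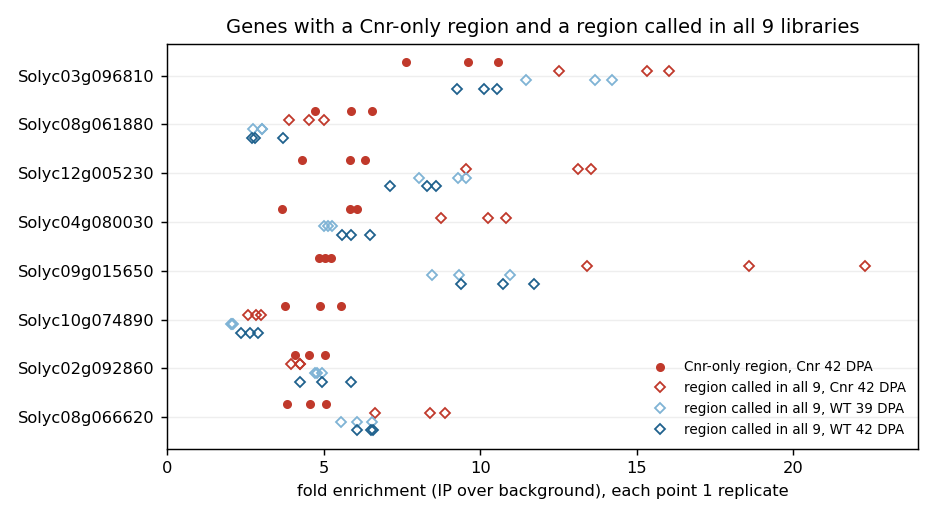
Fold enrichment (x axis) in 8 genes (y axis) of the Cnr-only region in *Cnr* (filled circles) and of the region called in all 9 libraries in *Cnr*, wild type at 39 DPA and wild type at 42 DPA (open diamonds). Each point is 1 replicate, and in 3 genes, Solyc08g061880, Solyc10g074890 and Solyc02g092860, the circles have the higher mean of the 2 in *Cnr*.

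The change from 39 to 42 DPA in wild type was not used to choose the members, and it was tested in the other regions of their genes, some of which a neighbouring gene shares. Of the 48 such regions called in every wild-type library, 1 was higher at 39 DPA and none lower, by at least 1.5-fold with an adjusted p under 0.05 (limma with Benjamini-Hochberg adjustment over all 8533 regions). Over all regions tested, 3% were higher and 1.55% lower, 4.55% in either direction, so the count among the 48 was near the background. The 1 region was on Solyc02g014130, a Tudor/PWWP/MBT domain gene. It had 6.4-fold, 6.94-fold and 7.85-fold at 39 DPA and 3.97-fold, 4.18-fold and 3.97-fold at 42 DPA. The log2 difference was 0.80 (SE 0.14, adjusted p = 5.3e-07 from limma). The SE was the same in all 48 regions, because limma pooled the variance over regions. The SE and p therefore do not measure the spread of this region alone. Counted without a minimum fold, 6 of the 48 passed, 5 higher and 1 lower at 39 DPA, while 15.3% of all regions did. The unadjusted p was under 0.05 in 13 of the 48 and in 27.4% of all regions. Leaving out 1 replicate gave 1 to 3 calls, with 2 without replicate 1 or 2 at 39 DPA or replicate 1 at 42 DPA and 3 without replicate 2 at 42 DPA, while 4.34% to 5.71% of all regions were then called.

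The contrast of *Cnr* with wild type at 42 DPA is the one behind the calls, so its counts are only set beside the background. Of the 46 other regions of these genes called in every library at 42 DPA, 12 were higher and 1 lower in *Cnr*, while over all 8007 regions 25.2% were higher and 1.91% lower, 27.1% in either direction. With each library centred on its median, 2 were higher and 3 lower, against 5.4% and 7.76% of all regions, a balance that the centring itself brings about. Without *Cnr* replicate 2, 22 of 47 regions were called, against 38.7% of all. Without a minimum fold, 25 of the 46 passed, against 50.5% of all. The 1 lower region was on Solyc02g081920, plastid transcriptionally active 14, a component of the plastid transcription machinery. It had a mean of 4.12 in *Cnr* and 8.71 in wild type at 42 DPA, while a Cnr-only region in the 5′ UTR of this gene had 2.93-fold, 2.90-fold and 3.2-fold (chromosome 2, 46247833 to 46248041, 5′ UTR).

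More than 1 Cnr-only region was present on 7 genes. Solyc06g018004, tetraspanin10, a membrane scaffold protein, had 3 on an intron, with means of 4.4, 2.21 and 2.54 and no wild-type peak anywhere on the gene. Solyc04g081100 had 2 in its 3′ UTR, 4.58 and 3.98 on average. In Solyc02g078550 the means were 4.41 in the 3′ UTR and 2.32 over the stop codon, both above the floor, and in the pentatricopeptide repeat gene Solyc01g108410 they were 4.17 and 3.70, both in the 3′ UTR. The second region of Solyc01g108410 also overlaps Solyc01g108400. Regions on 1 gene share their transcript and are not independent.

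Near the edge of the rule the members faded into the regions that missed it. The weakest member, on unplaced sequence outside genes, had 1.19-fold, 1.24-fold and 1.49-fold (chromosome 0, 16776694 to 16777014, outside genes) with 468, 443 and 283 IP fragments. Next were a region on Solyc09g066495 and Solyc09g066500 with 1.58-fold, 2.0-fold and 1.66-fold (chromosome 9, 65142769 to 65142974, stop codon) and a region on Solyc06g009970 with 1.90-fold, 1.84-fold and 1.78-fold (chromosome 6, 4380562 to 4380771, 3′ UTR). The last held 1688, 1513 and 1424 IP fragments, the most of these, over a high background. Of the regions with 3 *Cnr* calls and 1 wild-type call, the strongest was on Solyc06g068590 and Solyc06g068600, with 13.1-fold, 10.2-fold and 14.6-fold in *Cnr* and 2.45-fold in replicate 2 of wild type at 42 DPA. It was more enriched in *Cnr* than the members on average and missed the rule by a peak of 118 IP fragments. A region of chromosome 2 outside genes had 10.6-fold, 7.25-fold and 10.98-fold in *Cnr* and 2.52-fold in replicate 3 at 39 DPA. Solyc07g054500 had 10.05-fold, 5.88-fold and 10.9-fold in *Cnr* and 2.80-fold in replicate 1 at 39 DPA. In the 99 such regions the single wild-type peak was at 39 DPA in 68 and at 42 DPA in 31, with a median enrichment of 2.61. Of the regions with 2 *Cnr* calls and none in wild type, the strongest was on chromosome 11 outside genes, with 4.74-fold and 4.84-fold in replicates 1 and 3. Solyc06g069350 had 4.08-fold and 5.15-fold in the same replicates, and a region on Solyc05g016180 and Solyc05g016185 had 4.44-fold and 4.45-fold. In all 3, replicate 2 lacked the peak.

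The gap from a Cnr-only region to the nearest wild-type peak had a median of 8420.5 bp and was under 1000 bp in 46 regions (12.6%) and under 500 bp in 26. The shortest was 74 bp. When peaks up to 100 bp apart were merged, 363 Cnr-only regions were found.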

How the data were processed

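Pericarp mRNA of 3 groups with 3 replicates each was profiled by m6A-seq, as 18 IP and input libraries in 9 peak lists. Per the labels and the study's methods, the authors trimmed reads (cutadapt 1.16, Trimmomatic 0.30), aligned them to build SL3.0 with BWA, kept uniquely mapped reads, called peaks in each IP library against its input with MACS and annotated them with PeakAnnotator. The deposited fold enrichment is the ratio of IP fragments to background at a summit, as MACS gives it, and the deposited −log10 p and −log10 q values are MACS scores of that summit. In 2 lists the names of the p and q columns were lost, and they were read by position. Read depth per library is not given in the lists.

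From fold enrichment and p, each summit’s IP fragments and background were computed, and 99.86% of IP numbers were whole within 0.1. Coordinates are printed as the lists give them. Peaks sharing at least 1 bp over the 9 lists were merged. The members, gene lists and named genes were chosen with earlier results of these data known. Named were the 10 highest regions, the top 3 of each list, the top 8 genes with a constant region, members of genes with several, the edge of the rule and *SlALKBH2*. Gene names come from the study's tables and GO terms from the lists. The RefSeq gene table matched none of the Solyc identifiers and no SL3.0 genome was used, so no sequence is printed.

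Log2 fold enrichment was tested with limma 3.58.1 (R 4.3.3) on regions called in all 6 libraries compared, with a call at 1.5-fold and an adjusted p of 0.05. Within a contrast limma gave the regions the same SE, so the p-values rest on a spread between libraries that was pooled over regions. The code was tested on simulated data. Same-numbered replicates of *Cnr* and wild type at 42 DPA had deviations correlated at 0.18, 0.44 and 0.34, above 0.1 in every pair. Differently numbered pairs ranged from -0.41 to 0.23, and *Cnr* replicate 1 was no closer to its own number than to wild-type replicate 3 (0.19). The correlations of wild type at 39 and 42 DPA were 0.23, 0.34 and 0.08. Alternatives were other merging, thresholds, wild-type stage, scaling, pseudocount, pairing and the omission of each replicate. Some were added after seeing the data, as the closing section says.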

Additional observations from a re-analysis of the deposited data

How the results depend on the processing

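The number of Cnr-only regions was 364, and 668 when only wild type at 42 DPA had to lack the peak. Leaving out 1 replicate gave 365 to 568, the highest without *Cnr* replicate 2. In settings chosen after seeing the data, 157 regions held at least 2 times the IP fragments of the weakest wild-type call on the floor, and 73 had a background above the floor. The 157 had a median enrichment of 4.31 and 56.1% of them lay over the stop codon. In wild type, the other regions of these genes gave 1 call between 39 and 42 DPA, 6 without a minimum fold and 1 to 3 when 1 replicate was left out. Between *Cnr* and wild type at 42 DPA there were 13 calls, 5 after median centring and 11 to 22 when 1 replicate was left out. With the replicate block the calls were again 1 and 13, but the 1.5-fold minimum decides these counts and a balanced block leaves the differences as they are. The block was therefore also run without that minimum, a setting chosen after seeing the data. It gave 5 calls against 6 without the block in wild type, and 22 against 25 between *Cnr* and wild type at 42 DPA. The cause of these changes was not tested. Other alternatives moved no result beyond the spread between replicates or 1.5 times a count.

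The lists hold called peaks only. A missing peak is not a level, and the lists give no wild-type input at the members. A fold enrichment on the floor does not separate methylation from transcript level. The spread rests on 3 libraries a group, and *Cnr* replicate 2 was the least enriched of its group.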

Other observations

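Regions shared by *Cnr* with only 1 wild-type stage were not part of the report's set. In all 3 *Cnr* and all 3 wild-type 39 DPA libraries but in no wild-type 42 DPA library, 161 regions were called, with a median enrichment in *Cnr* of 3.99. In the *Cnr* and wild-type 42 DPA libraries but in none at 39 DPA, 51 regions were called, with a median of 3.42. The background was on the floor in all *Cnr* libraries in 78.3% of the 161 and in 54.9% of the 51. The number of regions was not tested, and the general level of enrichment differed between the groups.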
